A study of Mus musculus with 17 samples.

Results

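Genes of the extracellular matrix and the basement membrane were followed by RNA sequencing in purified primordial germ cells of the mouse, the embryonic precursors of eggs and sperm. They are 44 named genes, taken by exact symbol from the 23361 genes in each of 2 tables, and all 44 were found in both. By role they comprise 6 fibrillar collagens, 4 other interstitial collagens, 15 basement membrane genes, 6 glycoproteins and elastic fibre genes, 8 matricellular proteins and proteoglycans, and 5 proteases and protease inhibitors. There were 17 libraries, with 5 at E11.5 and 12 at E13.5, where E gives the embryonic day. At E11.5 there were 2 libraries of cells exposed to ionizing radiation (IR) and 3 without IR, with no sex given. At E13.5 there were 3 irradiated female libraries (coded FIR), 3 non-irradiated female libraries (FC) and 2 sets of 3 male libraries, coded MIR and MC.

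The labels of the male sets contradict each other. Titles and condition entries list the MIR libraries as non-irradiated and the MC libraries as irradiated, while the codes follow the pattern of the female codes and read the other way. The sets are therefore called by their codes, and male differences are MIR minus MC with no statement of which set was irradiated. FIR replicate 1 carries a cell type entry of E11.5, but its title and source read E13.5. Strain, radiation dose, time after exposure and the embryos or litters behind each library are not stated in any source at hand, so p-values measure the spread between these samples, which may be technical.

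As background, the basement membrane is a thin sheet of matrix that separates epithelium from connective tissue. Laminins, each a trimer of an alpha, a beta and a gamma chain, and type IV collagen each form a network, and nidogens and perlecan join the networks. Fibrillar collagens, fibronectin and elastic fibres make up the matrix of connective tissue. Matrix metalloproteinases cut these proteins, and the tissue inhibitors of metalloproteinases (TIMPs) hold those enzymes back. In the fetal gonad a basement membrane surrounds the testis cords, and its components are made by the supporting (Sertoli) cells and the surrounding stroma.

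Levels are in FPKM, which divides the fragments of a gene by its transcript length and by the size of the library, so that different genes can be set side by side. No library totals were given. Estimates from the spacing of the lowest values put the depth between 10.9 and 19.4 M fragments at E11.5 and between 13.4 and 26.2 M at E13.5. All 12 germ cell markers, of which Dppa3 was the most abundant, reached 1 FPKM in every library. The summed germ cell markers were 1658 to 2511 FPKM in FIR, 3350 to 3462 in FC, 1445 to 2728 in MIR and 4190 to 4542 in MC. MIR replicate 2 and FIR replicate 1 stood apart within their groups, as described below, and E11.5 IR replicate 1 was the one E11.5 library with more than 1 of 8 Sertoli markers at 1 FPKM or above, with 6.

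The 44 genes made up a small part of each library. Their summed FPKM was 515.6, 407.6 and 418.5 in FIR libraries, against 353.9, 355.8 and 324.7 in FC libraries. It was 1626, 731.2 and 1399 in MIR libraries, against 288.3, 363.3 and 328.9 in MC libraries. At E11.5 it ran from 276 to 349.6. The MIR set lay above all other libraries, and the E11.5, FC and MC libraries covered a common range. Which gene led also differed: Sparc, which encodes the collagen-binding protein SPARC, was the most abundant of the 44 in each FIR and MIR library. Nid2, which encodes nidogen 2, led in each E11.5 and FC library and in MC replicate 1, and Fn1, the fibronectin gene, led in MC replicates 2 and 3.

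**Figure D1:**
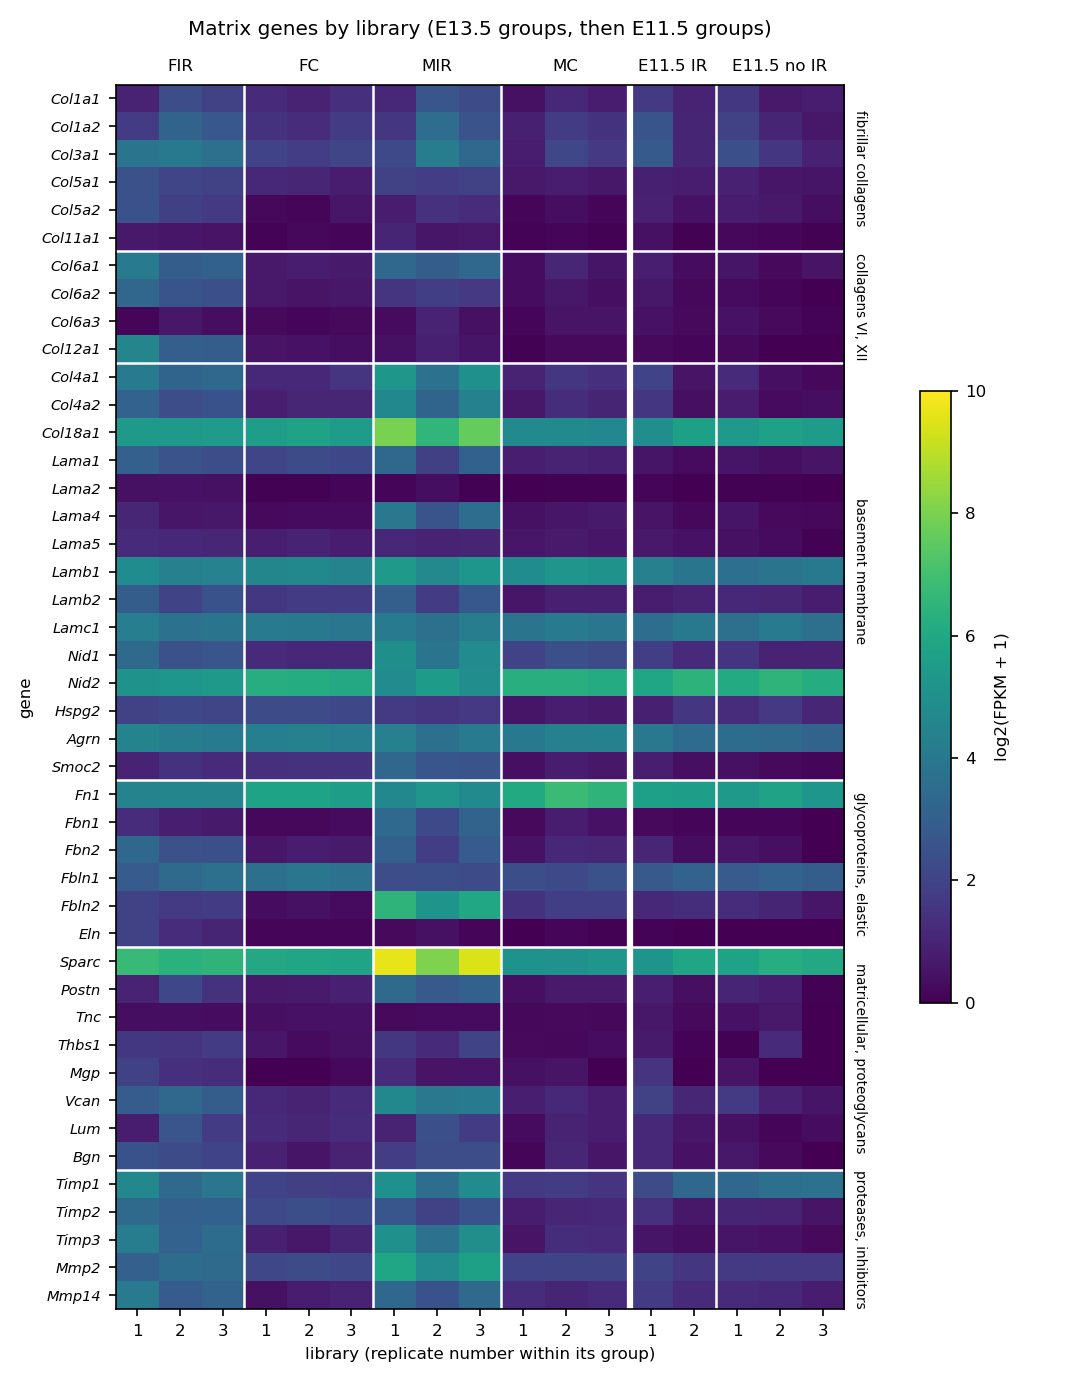
Level of each of the 44 matrix genes in each of the 17 libraries, as log2(FPKM + 1) by colour, with genes in rows by role and libraries in columns by group. Nid2, Fn1, Sparc, Col18a1, Lamb1, Lamc1 and Agrn are bright in all groups, and Sparc in the MIR libraries is the brightest, at up to 795.2 FPKM.

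In the female germ cell libraries, irradiated samples had more RNA of type III, IV, V, VI and XII collagens, nidogen 1 and the TIMPs, and less of nidogen 2 and fibronectin. On the scale of log2(FPKM + 1), Col12a1, Timp3, Col6a1 and Mmp14 had the largest rises, by 3.05, 2.78, 2.67 and 2.66. Differences were tested with limma on log2(FPKM + 1) over all 12852 genes that reached 1 FPKM in at least 3 libraries, with Benjamini-Hochberg adjustment and a threshold of 0.05, and "rose" or "fell" is written here for genes that passed. Of the 44 genes, 23 rose, 2 fell, 15 did not pass and 4 (Col11a1, Col6a3, Lama2 and Tnc) were too low to be tested. Over all genes tested, 21.8% rose and 22.9% fell. The median log2 difference was 1.12 over the 40 tested members and -0.03 over all genes, and because a low gene could be tested through the group where it was high, that median is a description. With no filter on low values, 24 of the 44 rose and 3 fell.

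Among the fibrillar collagens of females, 3 of 6 rose and the others did not pass or were not tested. Col3a1, the type III collagen of soft connective tissue, had 13.4, 15.5 and 11.97 FPKM in FIR, against 3.05, 2.49 and 3.27 in FC. Its log2 difference was 1.89 (SE 0.42, limma adjusted p = 0.00355), and the groups were far apart. Col5a2, a type V collagen chain that joins the fibrils of other collagens, had 4.76, 2.69 and 2.25 FPKM in FIR, against 0.152, 0.131 and 0.528 in FC. Col5a1, its partner chain, averaged 3.59 ± 0.87 FPKM in FIR and 1.01 ± 0.25 in FC (SD, n = 3 each). Their log2 differences were 1.71 (SE 0.24) and 1.19 (SE 0.16). The type I collagen genes behaved otherwise: Col1a1 had 0.932, 4.11 and 2.88 FPKM in FIR, against 1.26, 0.971 and 1.61 in FC, so FIR replicate 1 lay below all FC libraries. Col1a2 had 2.36, 8.11 and 5.49 FPKM in FIR, against 1.73, 1.43 and 2.30 in FC, and its adjusted p was 0.075 by limma.

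The other interstitial collagens held the gene with the largest female difference among the 40 tested on the log2(FPKM + 1) scale. Col12a1 (chromosome 9, 79598991 to 79718831), a collagen that lies along the surface of fibrils, had 22.6, 7.14 and 6.76 FPKM in FIR, against 0.434, 0.402 and 0.307 in FC. That is 31.9-fold in mean FPKM and a log2 difference of 3.05 (SE 0.33, limma adjusted p = 4.38e-05). At E13.5 Col12a1 reached 1 FPKM only in the FIR libraries, so it passed the filter only through the group where it was high. Each FIR library was above each FC library, and FIR replicate 1 was 3.25 times the mean of the other FIR libraries. Col6a1 and Col6a2, which encode chains of the beaded type VI collagen, rose by 2.67 (SE 0.28) and 2.17 (SE 0.21) on the log2 scale. Col6a1 had 16.7, 6.68 and 7.61 FPKM in FIR, against 0.587, 0.694 and 0.669 in FC. Col6a3, which encodes the third chain of that collagen, had at most 0.561 FPKM in FIR and 0.202 FPKM in FC and was not tested.

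Within the female basement membrane group, 4 of 15 genes rose and 1 fell. The 4 rises, of 14 tested, are close to the share over all genes tested, of which 21.8% rose and 22.9% fell. The median log2 difference of the 14 was 0.13. Col4a1 and Col4a2, whose products form the common type IV collagen trimer, rose by 2.32 (SE 0.35) and 1.69 (SE 0.33). Col4a1 had 16.6, 8.28 and 9.28 FPKM in FIR, against 1.15, 1.22 and 1.86 in FC. Nid1, which encodes nidogen 1, had 9.85, 4.64 and 5.14 FPKM in FIR, against 1.35, 1.25 and 1.16 in FC, a log2 difference of 1.68 (SE 0.29, limma adjusted p = 0.000878). Its paralog Nid2 went the other way, with 33.9, 37.2 and 41.9 FPKM in FIR, against 75.1, 73.0 and 64.6 in FC. Nid2 fell by 0.90 on the log2 scale (SE 0.15, limma adjusted p = 0.000588). Lamb2, a laminin beta chain, was the fourth to rise, by 0.81, and did not pass without FIR replicate 1 (log2 difference 0.59, limma adjusted p = 0.154), without FIR replicate 3 or without any one FC library (0.76 to 0.83, limma adjusted p = 0.079 to 0.103). Several of the most abundant genes of this group differed little: Lamb1 averaged 22.7 ± 4.5 FPKM in FIR and 23.0 ± 1.5 in FC, Lamc1 14.8 ± 3.2 and 15.2 ± 0.95, and Agrn, which encodes the proteoglycan agrin, 18.2 ± 2.7 and 18.9 ± 0.75 (SD, n = 3 each).

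Among the female glycoprotein and elastic fibre genes, Fbn2, Fbln2 and Eln rose and Fn1 fell. Fn1 (chromosome 1, 71585520 to 71653200), whose product fibronectin binds integrins and collagens, had 21.2, 22.6 and 22.6 FPKM in FIR, against 55.3, 55.2 and 47.5 in FC. It fell by 1.21 on the log2 scale (SE 0.18, limma adjusted p = 0.000285), the largest fall of the 44 genes in females. Fbn2, a fibrillin of developing microfibrils, rose by 2.05 (SE 0.32), with 9.06, 4.59 and 4.50 FPKM in FIR, against 0.526, 0.703 and 0.665 in FC. Fbln2, an elastic fibre and basement membrane fibulin, rose by 1.44 (SE 0.26), to a mean of 2.50 ± 0.33 FPKM in FIR, against 0.291 ± 0.070 in FC (SD, n = 3 each). Eln, the elastin gene, had 2.81, 1.42 and 1.04 FPKM in FIR, against 0.106, 0.107 and 0.111 in FC, a log2 difference of 1.26 (SE 0.21). Like Col12a1, Eln reached 1 FPKM at E13.5 only in the FIR libraries and passed the filter only through them. Fbln1, the other fibulin, had 6.40, 9.94 and 12.1 FPKM in FIR, against 12.1, 14.3 and 12.3 in FC, and did not pass.

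Of the 8 matricellular and proteoglycan genes, 5 rose in females. Vcan, which encodes the large proteoglycan versican, rose by 1.96 (SE 0.19, limma adjusted p = 2.26e-05), with 6.599, 9.48 and 6.80 FPKM in FIR, against 1.25, 0.982 and 1.38 in FC. Bgn, the gene of the small proteoglycan biglycan, rose by 1.46 (SE 0.25), with 4.77, 3.86 and 3.02 FPKM in FIR, against 0.890, 0.463 and 0.942 in FC. Mgp, whose product inhibits calcification of matrix, rose by 1.46 (SE 0.24), with 2.93, 1.58 and 1.40 FPKM in FIR, against 0.168 FPKM in FC replicate 3 and a listing of 0 in the other FC libraries. Outside FIR, Mgp reached 1 FPKM at E13.5 only in MIR replicate 1, so it passed the filter through the FIR libraries. Thbs1 (thrombospondin 1) and Postn (periostin) also rose, by 1.19 and 0.74. Postn depended on the choice of libraries and scaling, with log2 differences of 0.31 to 0.80 and adjusted p-values of 0.0564 to 0.378 by limma in the 9 alternatives in which it did not pass. Sparc had 106.5, 83.7 and 89.6 FPKM in FIR, against 64.8, 59.3 and 57.0 in FC, and did not pass (limma adjusted p = 0.108) although the groups did not overlap.

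All 5 protease and inhibitor genes rose in females. Timp3, whose protein is bound within the matrix, had 17.2, 7.92 and 10.5 FPKM in FIR, against 0.820, 0.561 and 1.04 in FC, a log2 difference of 2.78 (SE 0.35, limma adjusted p = 0.000107). Mmp14, a membrane-anchored metalloproteinase that activates pro-MMP2, rose by 2.66 (SE 0.31), with 16.4, 6.58 and 8.09 FPKM in FIR, against 0.384, 0.729 and 0.971 in FC. Timp1 rose by 2.11 (SE 0.34), with 24.4, 9.90 and 14.2 FPKM in FIR, against 3.01, 2.71 and 2.53 in FC. In these 3 genes FIR replicate 1 was the highest library. Mmp2, the gelatinase that Mmp14 activates, and Timp2, which takes part in that activation, rose by 1.17 and 0.93.

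Vcan, Mmp14 and Timp1 passed in both the female and the male comparison, and the stretch before their start holds no exon in GENCODE M21, so their upstream sequences are shown. They are the 250 bases before the RefSeq start on GRCm38.p6, at chr13:89742513-89742762 on the minus strand for Vcan, chr14:54431348-54431597 on the plus strand for Mmp14 and chrX:20869916-20870165 on the plus strand for Timp1, and are written 5′ to 3′ along the gene. Capitals mark GC boxes (GGGCGG) and CCAAT boxes (CCAAT) on either strand.
Vcan: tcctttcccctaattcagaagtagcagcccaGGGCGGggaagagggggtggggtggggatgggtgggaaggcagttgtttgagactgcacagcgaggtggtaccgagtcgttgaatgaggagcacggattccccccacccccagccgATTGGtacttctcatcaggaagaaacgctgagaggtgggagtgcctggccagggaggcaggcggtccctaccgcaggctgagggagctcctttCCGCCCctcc
Mmp14: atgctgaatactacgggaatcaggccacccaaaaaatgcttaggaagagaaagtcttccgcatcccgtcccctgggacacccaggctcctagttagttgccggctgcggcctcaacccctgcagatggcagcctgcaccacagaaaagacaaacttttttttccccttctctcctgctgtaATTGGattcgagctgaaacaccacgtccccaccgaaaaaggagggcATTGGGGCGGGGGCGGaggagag
Timp1: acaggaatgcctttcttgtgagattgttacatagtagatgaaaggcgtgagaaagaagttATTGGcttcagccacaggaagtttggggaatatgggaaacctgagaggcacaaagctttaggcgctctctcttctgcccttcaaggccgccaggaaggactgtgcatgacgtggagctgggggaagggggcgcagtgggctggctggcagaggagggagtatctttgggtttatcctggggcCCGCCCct

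In the Vcan sequence the GC boxes begin 219 and 10 bases before the start and the CCAAT box begins 103 bases before it. In Mmp14 the GC boxes begin at 19 and 13 bases and the CCAAT boxes at 69 and 23 bases, the last of which shares a base with a GC box. In Timp1 the boxes begin at 190 bases (CCAAT) and 8 bases (GC). RefSeq upstream sequences were matched for 29 of the 44 genes, with 35 starts. A GC box stood in 24 of these 35, or 68.6%, against 58.1% of the starts of genes tested at E13.5 and 32.7% of all 32851 starts. A CCAAT box stood in 31.4% of member starts, against 35.7% of the starts of tested genes and 33.8% of all. A TATA box (TATAAA) stood in 4 member starts, or 11.4%, against 6.34% and 12.4%. CAAGGTCA, a site of NR5A1, a transcription factor of gonadal somatic cells, stood in 0 of the 35, against 0.935% and 1.33%. These are matches of letters in 1 window and say nothing of binding.

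In the male sets, MIR libraries had more RNA of most matrix genes than MC libraries, led by Fbln2, Sparc, Timp3, Mmp2 and Col4a1, and less of Nid2 and Fn1. Of the 44 genes, 30 were higher and 2 lower in MIR, 8 did not pass, and the same 4 as in females were not tested. Over all genes tested, 28.7% were higher in MIR and 31% lower. The median log2 difference was 1.64 over the 40 tested members and -0.04 over all genes. Scaling all libraries to a common median moved the median of all genes to -0.20, with 3076 genes higher and 5143 lower in place of 3690 and 3989, and 28 members were then higher and 3 lower. Without MIR replicate 2 the counts were 28 and 2.

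Of the 15 basement membrane genes, 10 were higher and 1 lower in MIR than in MC. Col4a1 had 38.2, 12.6 and 31.2 FPKM in MIR, against 0.965, 2.03 and 1.63 in MC, a log2 difference of 3.37 (SE 0.35, limma adjusted p = 1.76e-05). Col4a2 had 24.5, 8.35 and 19.9 FPKM in MIR, against 0.564, 1.46 and 1.08 in MC, a log2 difference of 3.10 (SE 0.33). Lama4, a laminin alpha chain, had 14.9, 5.06 and 11.1 FPKM in MIR, against 0.365, 0.527 and 0.655 in MC, a log2 difference of 2.80 (SE 0.28). In these 3 genes MIR replicate 2 was between 0.36 and 0.39 times the mean of the other MIR libraries, and still above every MC library. Lama4 reached 1 FPKM at E13.5 only in the MIR libraries and FIR replicate 1, so it passed the filter through MIR. The others that were higher in MIR were Col18a1 (by 2.67), Nid1 (2.27), Smoc2 (2.25), Lama1 (1.86), Lamb2 (1.71), Hspg2 (0.95) and Lama5 (0.43). Lama5 did not pass under median scaling (0.27, limma adjusted p = 0.0816) or without MIR replicate 1 (0.38, limma adjusted p = 0.0543), and had a log2 difference of -0.11 after quantile normalization (limma adjusted p = 0.432). Nid2 had 27.6, 43.3 and 29.2 FPKM in MIR, against 75.6, 75.2 and 70.9 in MC. It was lower in MIR by 1.15 on the log2 scale (SE 0.15, limma adjusted p = 5.95e-05).

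Sparc (chromosome 11, 55394500 to 55423183) and Fbln2 (chromosome 6, 91212455 to 91272540) stood out in the male sets. Sparc had 795.2, 269.2 and 692.5 FPKM in MIR, against 33.7, 32.6 and 36.0 in MC, which is 17.2-fold in mean FPKM and a log2 difference of 3.92 (SE 0.30, limma adjusted p = 2.65e-06). It made up 36.8% to 49.5% of the summed FPKM of the 44 genes in the MIR libraries. Fbln2 had 88.7, 35.0 and 63.6 FPKM in MIR, against 1.80, 2.62 and 2.64 in MC, or 26.5-fold and a log2 difference of 4.16 (SE 0.26, limma adjusted p = 6.84e-07). Both genes were lowest in MIR replicate 2 among the MIR libraries, at 0.36 and 0.46 times the mean of the other MIR libraries. Without that replicate their log2 differences were 4.41 and 4.52.

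**Figure D2:**
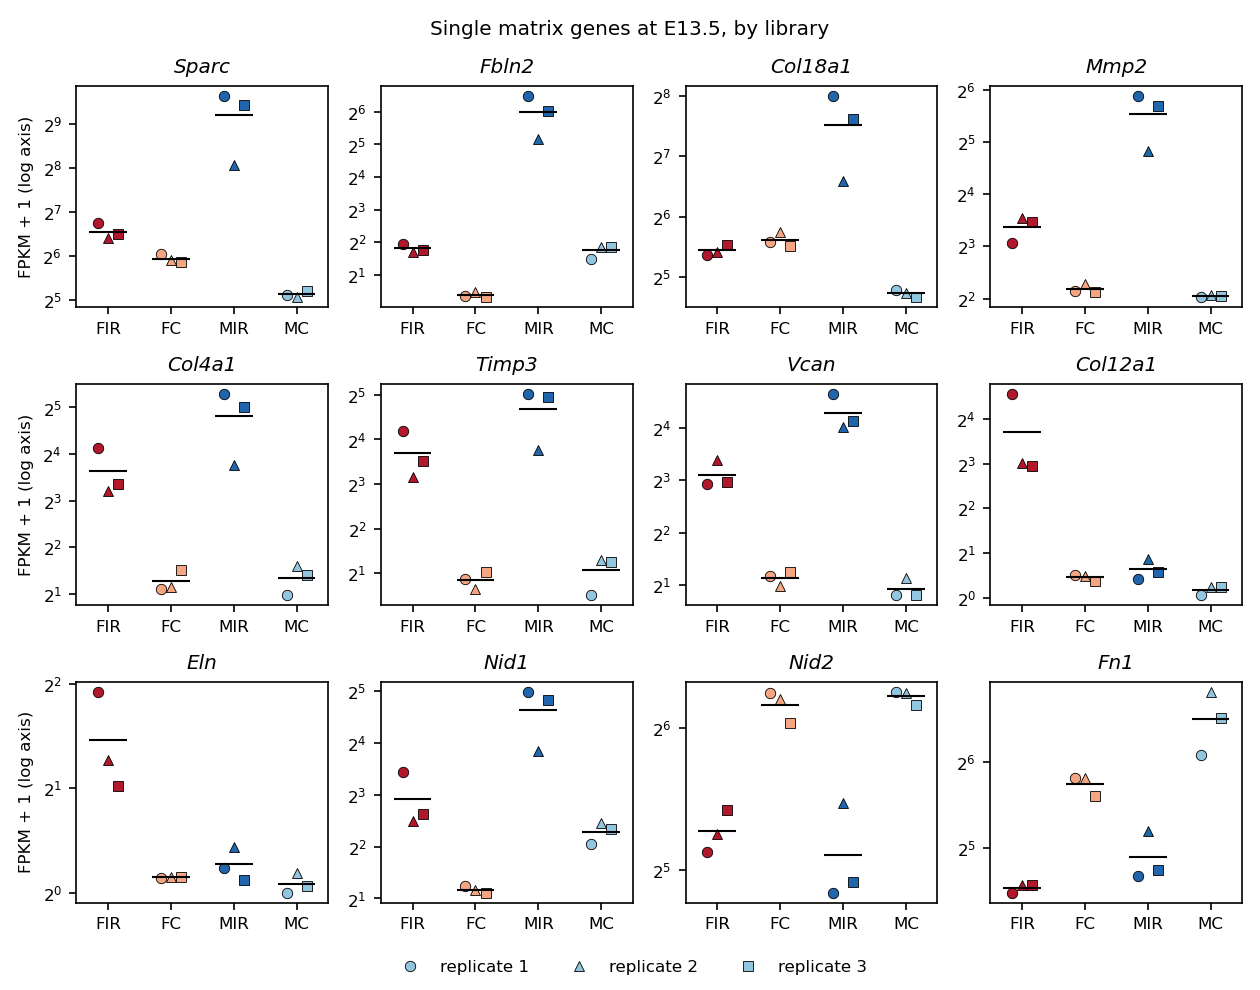
FPKM + 1 of 12 matrix genes in each E13.5 library, on a log axis, with 1 point per library, its replicate number by shape and the group mean as a line. The MIR libraries lie highest for Sparc, Fbln2, Col18a1 and Mmp2, the FIR libraries lie highest for Col12a1 and Eln, and Nid2 and Fn1 are lower in both FIR and MIR than in FC and MC.

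Among the other male glycoproteins, Fbn1, the main fibrillin of mature microfibrils, had 9.76, 3.59 and 7.98 FPKM in MIR, against 0.192, 0.717 and 0.411 in MC, a log2 difference of 2.42 (SE 0.28). Like Lama4, Fbn1 reached 1 FPKM at E13.5 only in the MIR libraries and FIR replicate 1, and passed the filter through MIR. Fbn2 was higher by 1.72 (SE 0.32), with 7.43, 2.56 and 6.59 FPKM in MIR, against 0.388, 1.18 and 1.09 in MC. Fn1 had 24.5, 35.7 and 25.6 FPKM in MIR, against 67.0, 112.6 and 90.9 in MC. It was lower in MIR by 1.61 (SE 0.18, limma adjusted p = 2.2e-05). Fn1 and Nid2 were the 2 of the 44 genes that were lower both in FIR than in FC and in MIR than in MC. Because the male labels conflict, this is not a statement that irradiation lowered them in both sexes. For both genes MIR replicate 2 was the highest MIR library. The summed germ cell markers were likewise highest in that MIR library, at 2728 FPKM against 1445 and 1918. Fbln1 averaged 4.15 ± 0.20 FPKM in MIR and 4.14 ± 0.47 in MC (SD, n = 3 each).

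Of the male matricellular genes and proteoglycans, 5 of 8 were higher in MIR. Besides Sparc, Vcan had 24.1, 15.2 and 16.4 FPKM in MIR, against 0.766, 1.21 and 0.762 in MC, a log2 difference of 3.34 (SE 0.19, limma adjusted p = 4.51e-07). Postn, which binds collagen and fibronectin, had 10.1, 5.97 and 7.64 FPKM in MIR, against 0.329, 0.663 and 0.671 in MC, a log2 difference of 2.50 (SE 0.27). Bgn and Thbs1 were higher by 1.57 and 1.36. Lum, the gene of the small proteoglycan lumican, had 0.929, 4.50 and 2.36 FPKM in MIR, against 0.221, 0.945 and 0.739 in MC, and did not pass.

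All 5 protease and inhibitor genes were higher in MIR than in MC. Timp3 had 31.5, 12.6 and 30.0 FPKM in MIR, against 0.430, 1.48 and 1.38 in MC, a log2 difference of 3.56 (SE 0.35). Mmp2 (chromosome 8, 92827291 to 92853420) had 57.8, 27.3 and 50.5 FPKM in MIR, against 3.08, 3.18 and 3.15 in MC, a log2 difference of 3.42 (SE 0.23, limma adjusted p = 1.07e-06). The MC libraries hardly differed from one another, and MIR replicate 2 was about 0.51 times the mean of the other MIR libraries. Timp1 was higher by 2.81 (SE 0.34), with 31.3, 11.4 and 27.1 FPKM in MIR, against 2.22, 2.42 and 1.95 in MC. Mmp14 and Timp2 were higher by 1.93 and 1.41.

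The type I and type III collagen genes had another library order in the male sets than the basement membrane genes above. Of the fibrillar collagens, 5 of 6 were higher in MIR, and Col6a1 and Col6a2 were higher as well. Col3a1 had 3.63, 17.6 and 9.004 FPKM in MIR, against 0.731, 3.33 and 2.17 in MC, a log2 difference of 1.73 (SE 0.42, limma adjusted p = 0.00366). Col1a1 had 1.19, 5.43 and 3.94 FPKM in MIR, against 0.352, 1.15 and 0.757 in MC, a log2 difference of 1.26 (SE 0.40). Col1a2 had 1.98, 10.9 and 4.88 FPKM in MIR, against 0.822, 2.39 and 1.79 in MC, and although it passed (log2 difference 1.201, limma adjusted p = 0.037), the groups overlapped. All 3 were highest in MIR replicate 2, the library in which Col4a1, Sparc and Fbln2 were lowest. Without that library Col1a1 and Col1a2 did not pass, with log2 differences of 0.93 and 0.70 (limma adjusted p = 0.058 and 0.145). They were also lost without MIR replicate 3 (1.12 and 1.21, limma adjusted p = 0.0581 and 0.0763) or MC replicate 1 (1.08 and 0.95, limma adjusted p = 0.0633 and 0.134), and Col1a2 without MC replicate 3 (1.26, limma adjusted p = 0.0662). Col6a1 had 9.49, 6.64 and 9.199 FPKM in MIR, against 0.255, 1.10 and 0.465 in MC, a log2 difference of 2.58 (SE 0.28), and Col6a2 was higher by 1.22 (SE 0.21). Col12a1, which gave the largest female log2 difference, had 0.349, 0.837 and 0.494 FPKM in MIR, against 0.0480, 0.179 and 0.186 in MC, and did not pass.

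The matrix genes did not all share one order of replicates. In MIR replicate 2, 28 genes had the lowest and 13 the highest of the MIR values. The 13 included Col1a1, Col1a2, Col3a1, Col6a3, Lama2 and Lum, at between 2.11 and 3.81 times the mean of the other MIR libraries, whereas Lama1, Col4a1, Sparc, Fbln2 and Nid1 were at between 0.33 and 0.46 times. In FIR replicate 1, 28 genes had the highest and 13 the lowest of the FIR values. Lum, Col1a1, Col6a3, Col1a2 and Postn were lowest there, at between 0.19 and 0.35 times the mean of the other FIR libraries, and Col12a1, Col6a1, Eln and Mmp14 were highest, at between 2.23 and 3.25 times. There were 22 genes that were both lowest in MIR replicate 2 and highest in FIR replicate 1, and 7 of the opposite order. The genes named in this paragraph were picked with their values known.

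Markers of gonadal somatic cells also differed between FIR and FC and between MIR and MC. In the male sets the 8 Sertoli markers summed to 4185, 1230 and 3805 FPKM in MIR, against 74.6, 109.4 and 125.7 in MC, and all 8 were higher in MIR. Cst9, the most abundant of them, had 1671, 487.1 and 1471 FPKM in MIR, against 22.3, 34.9 and 45.1 in MC. The Sertoli marker Fgf9 reached 1 FPKM at E13.5 only in MIR libraries and was tested only through them. In females the 9 pregranulosa markers summed to 251, 102.6 and 102.1 FPKM in FIR, against 6.28, 6.64 and 7.23 in FC, and all 9 rose. Fst, the most abundant of them, had 99.6, 40.1 and 35.5 FPKM in FIR, against 1.70, 1.60 and 2.02 in FC. Among the pregranulosa markers, Foxl2, Irx5 and Runx1 reached 1 FPKM at E13.5 only in FIR libraries and were tested only through them. The pregranulosa list had 2 of 9 markers higher in MIR, with sums of 8.53 to 16.2 FPKM in MIR, against 3.05 to 4.48 in MC. The Sertoli list had 1 of 8 markers higher in FIR, with sums of 28.5 to 30.2 FPKM in FIR, against 26.0 to 27.5 in FC. Aard made up most of these female sums, at 22.55 to 26.04 FPKM in FIR and 25.68 to 26.85 in FC. It also had 18.45 to 40.04 FPKM in the E11.5 libraries. The Sertoli marker Hsd17b3 was listed at 0 in every female library.

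The 6 markers of supporting cells of both sexes summed to 191, 83.6 and 90.3 FPKM in FIR, against 5.13 to 5.36 in FC, and to 252.6, 87.4 and 207 in MIR, against 8.23 to 10.8 in MC. Wt1 was the most abundant, all 6 rose in females and 5 were higher in MIR. Like Col4a1, Timp3 and Nid1, their sum was highest in FIR replicate 1 among the FIR libraries and lowest in MIR replicate 2 among the MIR libraries. The 12 stromal markers, led by Ptch1, summed to 16.6 to 19.7 FPKM in FIR, against 13.3 to 15.2 in FC, and to 30.6 to 32.4 in MIR, against 11.8 to 21.3 in MC. Of the 8 tested, 3 rose and 1 fell in females, and 5 were higher in MIR. Of 9 tested macrophage markers, led by C1qb, 9 rose in females, with sums of 46.2 to 72.3 FPKM in FIR, against 11.2 to 14.4 in FC, and 8 were higher in MIR, with sums of 13.02 to 29.5 FPKM in MIR, against 4.25 to 6.10 in MC. Of the 12 germ cell markers, 8 fell in females and 11 were lower in MIR than in MC. The part of these cells in the matrix gene differences was not tested. In bulk samples, fewer cells of a type and less RNA per cell cannot be told apart.

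**Figure D3:**
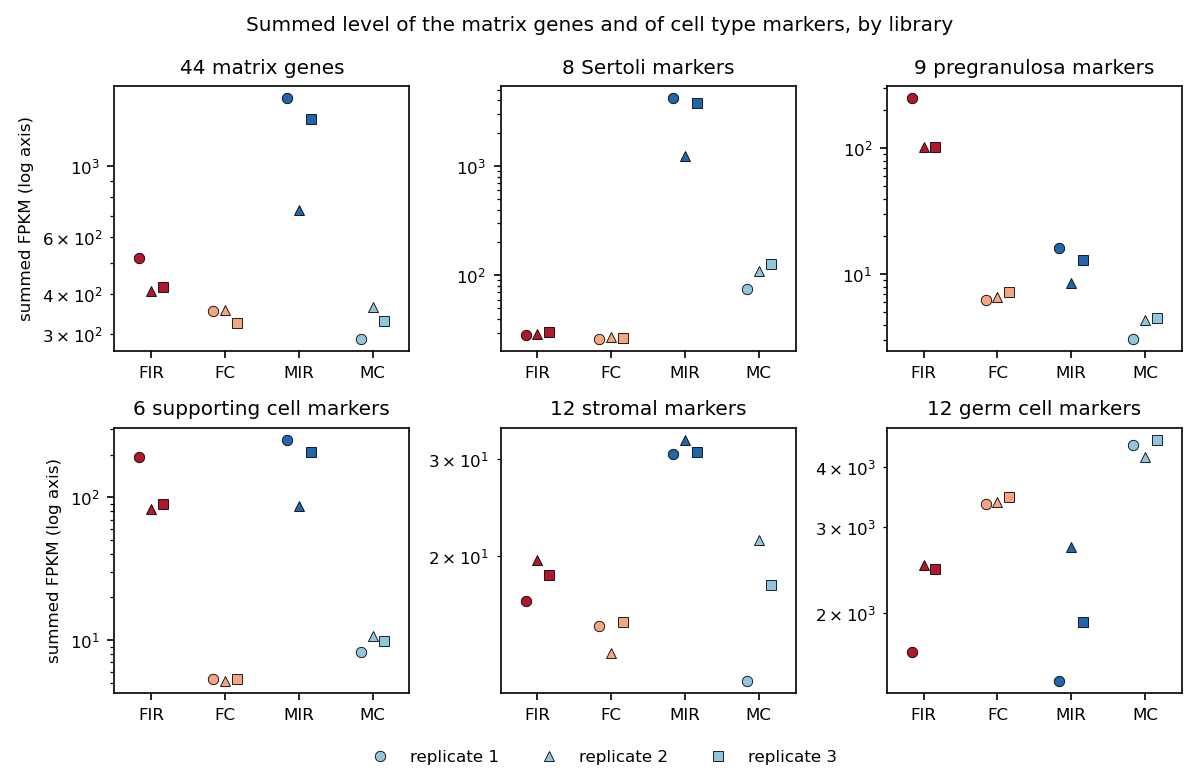
Summed FPKM of the 44 matrix genes and of 5 cell type marker lists in each E13.5 library, each on its own log axis, with replicate numbers by shape. MIR replicate 2 is the lowest MIR library and FIR replicate 1 the highest FIR library for the summed supporting cell markers, and the Sertoli sum separates MIR (1230 to 4185 FPKM) from MC (74.6 to 125.7).

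Shares within families were compared because FPKM is set per length, without a test and after the values were seen. Among the nidogens, Nid1 made up 22.5%, 11.1% and 10.9% of nidogen FPKM in FIR, against 1.77%, 1.68% and 1.76% in FC. It made up 52.6%, 23.4% and 48.3% in MIR, against 3.98%, 5.58% and 5.39% in MC. Lama4 was the main laminin alpha gene of the members in MIR. Its share of the 4 alpha genes among the members was 58.9%, 55.9% and 56.2% there, against 21.5%, 23.6% and 32.2% in MC. In females Lama4 made up 7.23% to 10.9% in FIR, against 4.24% to 4.94% in FC, and Lama1 was the main alpha gene of both female groups. Unlike the levels, the Lama4 share was nearly the same in the MIR libraries.

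The sum of alpha genes over Lamc1, the gamma chain, was 0.55, 0.57 and 0.47 in FIR, against 0.27, 0.34 and 0.32 in FC. It was 1.49, 0.76 and 1.14 in MIR, against 0.125 to 0.141 in MC. The summed alpha genes were thus below Lamc1 in every E13.5 library apart from MIR replicates 1 and 3. Lamb2 made up 14.0% to 19.4% of laminin beta FPKM in FIR, against 8.16% to 9.83% in FC, and 8.62% to 14.8% in MIR, against 1.84% to 2.46% in MC. Fbln2 made up 88.9% to 95.6% of the FPKM of Fbln1 and Fbln2 in MIR, against 29.5% to 42.0% in MC, and 16.7% to 31.0% in FIR, against 1.92% to 2.53% in FC. Col4a1 stood at 1.5 to 1.57 times Col4a2 in MIR, against 1.39 to 1.71 times in MC, and at 1.95 to 2.09 times in FIR, against 1.11 to 1.66 times in FC, so the ratios of the male sets overlapped while Col4a1 was 17.7 times and Col4a2 17.0 times as high in MIR as in MC by mean FPKM.

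**Figure D4:**
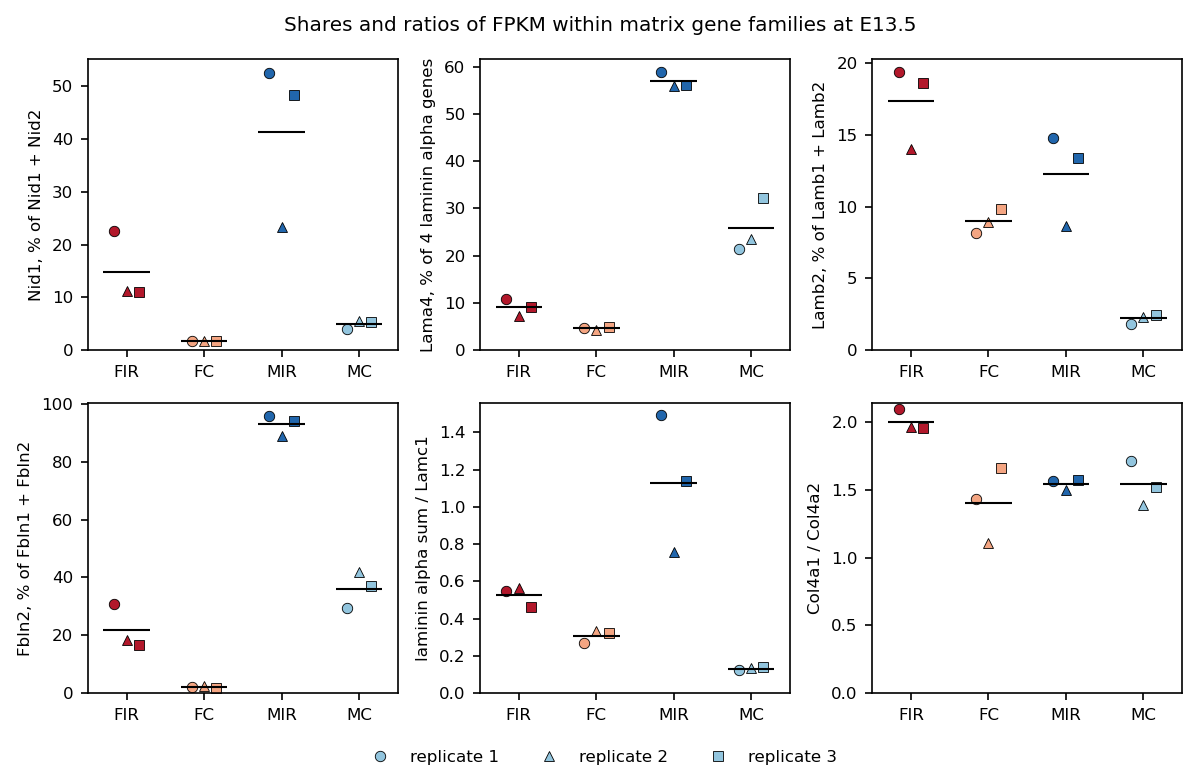
Shares (percent of FPKM) and ratios within matrix gene families in each E13.5 library, with 1 point per library, the replicate number by shape and the group mean as a line. The Nid1 share is above 10% in all FIR and MIR libraries and below 6% in all FC and MC libraries, and the Lama4 share is 55.9% to 58.9% in MIR.

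Several of these genes lie beside each other in the genome (GENCODE M21, GRCm38). Col4a1 (chromosome 8, 11198423 to 11312826, minus strand) and Col4a2 (chromosome 8, 11312805 to 11449287, plus strand) stand head to head and overlap by 22 bases at their 5′ ends, and both were higher in FIR than in FC and in MIR than in MC. Col3a1 and Col5a2 lie 24614 bases apart on chromosome 1, and Col6a1 and Col6a2 85161 bases apart on chromosome 10, and all 4 passed in both sexes. Timp1, Timp3, Col18a1, Nid2 and Fbn1 overlap a coding gene on the other strand (Syn1, Syn3, Slc19a1, Rtraf and Gm9913), and no source at hand says whether the counting used strand. Reads of such pairs may not be separable.

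Whether the female and the male difference were unequal was tested as the difference of differences, (FIR minus FC) minus (MIR minus MC). Of the 44 genes, 2 were more positive in females and 10 more negative, where over all genes tested 2.81% were more positive and 4.96% more negative, and 28 did not pass. Col12a1 (2.60, SE 0.47, limma adjusted p = 0.00719) and Eln (1.08, SE 0.29, limma adjusted p = 0.0428) were the 2 more positive ones, with the FIR and FC values given above and, for Eln, 0.180, 0.354 and 0.0920 FPKM in MIR, against 0, 0.143 and 0.0446 in MC. The most negative were Sparc (-3.31, SE 0.42), Col18a1 (-2.85, SE 0.36), Fbln2 (-2.72, SE 0.37) and Smoc2 (-2.46, SE 0.29), followed by Lama4, Mmp2, Postn, Fbn1, Vcan and Hspg2. Without MIR replicate 2 the counts were 4 and 15, and over all 12693 genes then tested they were 936 and 1554, in place of 361 and 637 of 12852. Eln passed in 7 of 21 alternatives and Fbn1 in 12. Lama4 and Fbn1 passed the filter through the MIR libraries, as stated above. Without any one FIR library Col12a1 and Eln reached 1 FPKM in too few libraries and were not tested, here or in FIR minus FC.

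For Col18a1, the type XVIII collagen of basement membranes from which endostatin is cut, the 2 comparisons looked quite different. It had 40.3, 41.6 and 45.4 FPKM in FIR, against 46.8, 52.5 and 44.8 in FC, with overlapping groups. It had 254.8, 95.1 and 195.9 FPKM in MIR, against 26.7, 25.5 and 24.4 in MC. Smoc2, a secreted calcium-binding protein of basement membranes, was alike in this, with 0.986, 1.77 and 1.33 FPKM in FIR, against 1.56, 1.79 and 1.79 in FC, and 8.92, 5.37 and 4.94 FPKM in MIR, against 0.340, 0.694 and 0.546 in MC. Hspg2, the gene of the proteoglycan perlecan, had 2.91, 3.47 and 3.30 FPKM in FIR, against 3.87, 3.86 and 3.496 in FC, and 2.28, 1.86 and 2.19 in MIR, against 0.487, 0.694 and 0.647 in MC. All 8 Sertoli markers were also more negative and 8 of 9 pregranulosa markers more positive in this test, and their part in it was not tested.

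**Figure D5:**
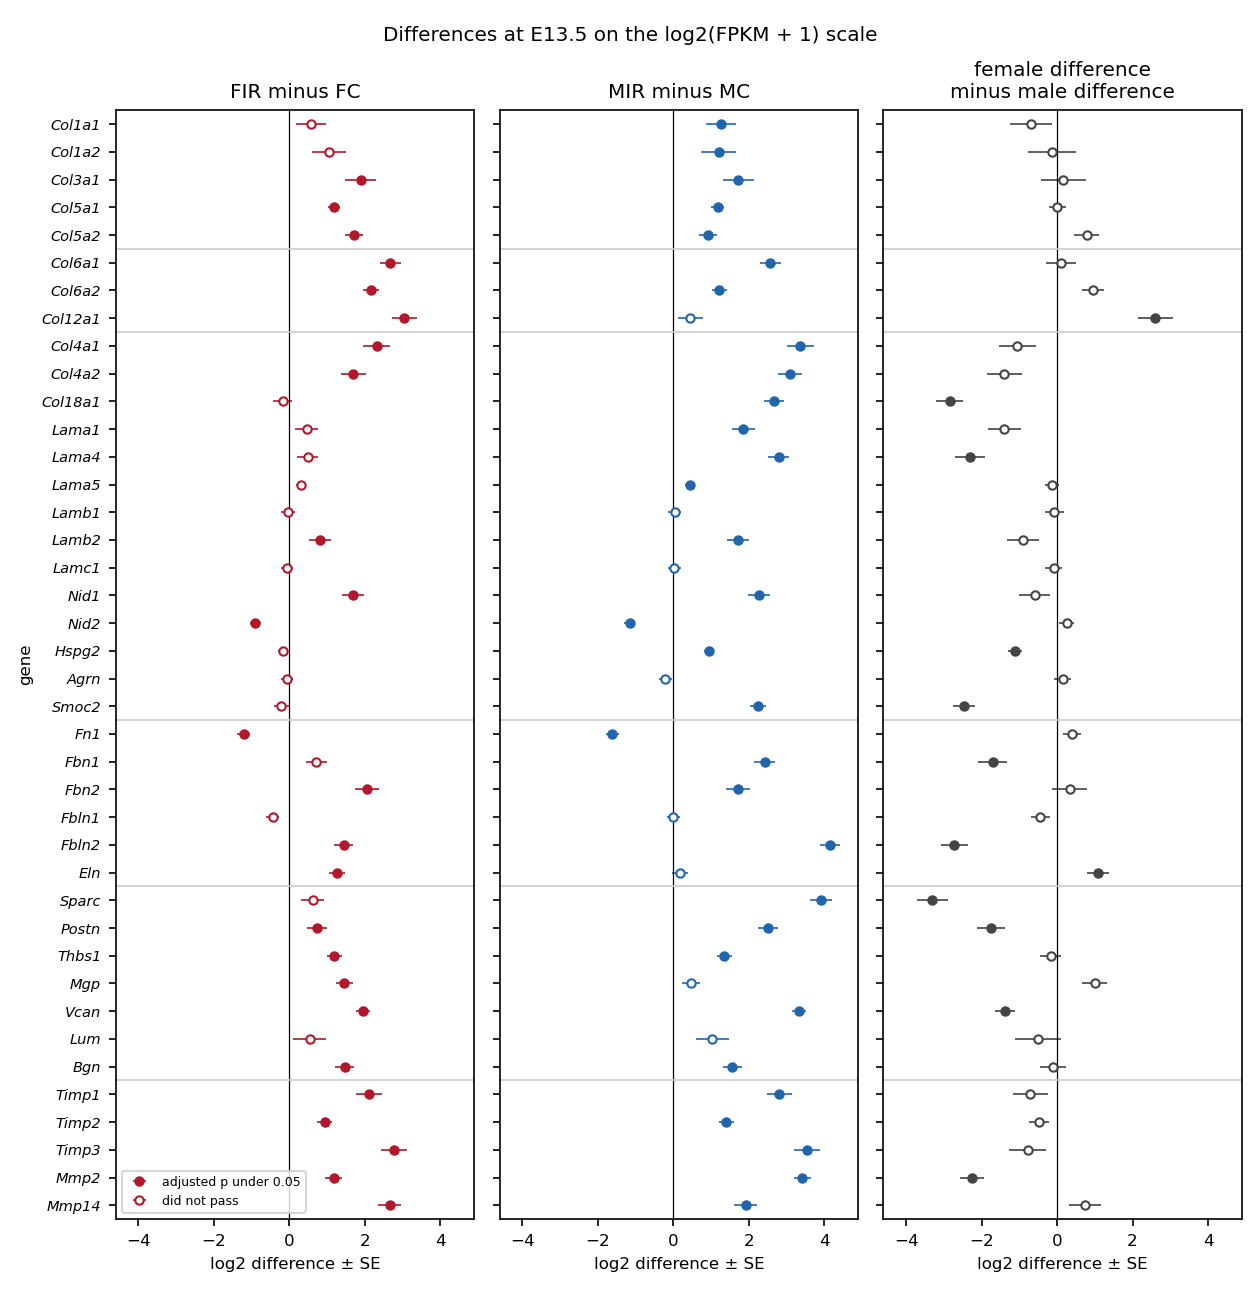
Log2 differences with standard errors of the 40 tested matrix genes at E13.5, in females, in the male sets and as the difference between both, with filled points for genes with an adjusted p under 0.05. Most points lie right of 0 in the first 2 panels, Nid2 and Fn1 lie left of it in both, and Sparc, Col18a1, Fbln2 and Smoc2 lie farthest left in the third.

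Female and male germ cell libraries without the FIR and MIR sets were compared as FC minus MC, which is a comparison of non-irradiated cells only if the male codes are right. Of the 44 genes, 7 were higher and 4 lower in FC, 29 did not pass and 4 were not tested, and over all genes tested 16.1% were higher and 18.8% lower. The 7 higher genes, of 40 tested, are close to the share over all genes. Of the 15 basement membrane genes, 5 were higher and 2 lower, and the median log2 difference of the 14 tested was 0.04. Hspg2 (chromosome 4, 137468769 to 137570630) was higher in FC by 1.56 (SE 0.13, limma adjusted p = 5.27e-06), with the values given above. Lama1, the laminin alpha chain of the early embryo, averaged 3.61 ± 0.36 FPKM in FC and 0.887 ± 0.11 in MC (SD, n = 3 each), a log2 difference of 1.29 (SE 0.30). Lamb2, Col18a1 and Smoc2 were higher by 0.90, 0.88 and 0.84, and Fbln1 and Timp2 by 1.43 (SE 0.18) and 1.29 (SE 0.19). Fbln1 had 12.1, 14.3 and 12.3 FPKM in FC, against 4.29, 3.61 and 4.51 in MC, while Fbln2 had 0.261, 0.372 and 0.241 FPKM in FC, against 1.80, 2.62 and 2.64 in MC.

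Fbln2, Nid1, Fn1 and Lamb1 were lower in FC than in MC. Their log2 differences were -1.37 (SE 0.26), -1.11 (SE 0.29), -0.74 (SE 0.18) and -0.50 (SE 0.18). Fn1 had 55.3, 55.2 and 47.5 FPKM in FC, against 67.0, 112.6 and 90.9 in MC. The call of Lamb1 was lost without any one FC library, MC replicate 2 or MC replicate 3 (limma adjusted p = 0.0782 to 0.144), and that of Col18a1 without FC replicate 2 (adjusted p = 0.0637) or MC replicate 3 (adjusted p = 0.0564), by limma. Lamb2 did not pass without any one FC or MC library (limma adjusted p = 0.0587 to 0.0965). When both sets of each sex were averaged, which does not depend on the male labels, Col18a1 and Smoc2 turned to -0.54 and -0.39. The Sertoli markers summed to 26.0 to 27.5 FPKM in FC, against 74.6 to 125.7 in MC. Aard made up nearly all of the FC sums, at 25.68 to 26.85 FPKM, and had 24.23 to 34.51 in MC. Cst9 had at most 0.217 FPKM in FC, against 22.3 to 45.1 in MC. Of the 8 markers, 5 were lower in FC and 0 higher. The part of these markers in the matrix gene differences was not tested.

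At E11.5 the irradiated and non-irradiated libraries did not differ past the threshold in any of the 44 genes. Of the 21 genes that reached 1 FPKM in at least 2 libraries, 0 passed limma with adjustment over 11315 genes, where 0.00884% of genes were higher and 0.00884% lower, and 1 of the 21 and 358 of all genes had an unadjusted p under 0.05. That gene was Timp1, with 4.01 and 9.27 FPKM with IR, against 9.15, 12.1 and 12.2 without IR, a log2 difference of -0.75 (limma adjusted p = 0.974) with overlapping groups. The median log2 difference was 0.17 over the 21 genes and -0.02 over all genes. Nid2 had 58.9 and 86.3 FPKM with IR, against 67.8, 90.8 and 72.9 without. Sparc had 35.3 and 59.1 FPKM with IR, against 54.1, 73.8 and 64.8 without. Fn1 had 48.9 and 47.8 FPKM with IR, against 41.2, 53.6 and 36.9 without, and both IR values lay within the range of the libraries without IR.

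Among the E11.5 libraries, replicate 1 of either group held the most fibrillar collagen RNA. The 6 genes summed to 15.4 and 4.23 FPKM with IR, against 11.2, 4.84 and 2.96 without. The 12 stromal markers followed the same order, with 24.3 and 11.7 FPKM with IR, against 17.7, 13 and 5.28 without, and their part was not tested. Non-irradiated replicate 3, whose depth was estimated lowest, listed 10 of the 44 genes at 0, against 0 to 3 genes in the other E11.5 libraries.

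Other genes of the same pathways, 150 in 6 lists, were counted in the same fits. At E13.5, 97 were tested. In females 46 rose and 7 fell, where over all genes tested 21.8% rose and 22.9% fell. In the male sets 68 were higher and 9 lower in MIR, where over all genes tested 28.7% and 31% were. In the difference of differences 6 were more positive and 20 more negative, where over all genes 2.81% and 4.96% were. In FC minus MC 15 of the 97 were higher and 12 lower, close to or under the shares of all genes, 16.1% and 18.8%. At E11.5 none of 57 tested passed, where over all genes 0.00884% were higher and 0.00884% lower. Genes were named from each list by the largest difference in each direction.

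Of 21 other collagens, Col4a5, a chain of another type IV collagen trimer, rose most in females, by 2.27 (SE 0.23), with means of 6.03 ± 2.76 FPKM in FIR and 0.392 ± 0.056 in FC (SD, n = 3 each). Col9a3, a type IX collagen chain, led in the male sets, with means of 156.6 ± 80.5 FPKM in MIR and 5.23 ± 1.44 in MC (SD, n = 3 each), a log2 difference of 4.52 (SE 0.35). In that list Col9a1 was the gene lower by most in FIR than in FC, by 0.87, and Col13a1 in MIR than in MC, by 0.87. Among 12 other basement membrane genes Pxdn, which encodes the peroxidasin that crosslinks type IV collagen, was higher by 1.39 in FIR and by 2.69 in MIR, and Frem2 was lower by 0.83 in MIR.

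Of 38 other glycoproteins and proteoglycans, Thbs2 (thrombospondin 2) rose most in females, by 2.84, and Tgfbi led in MIR, by 3.59. Thbs2 averaged 9.8 FPKM in FIR, against 0.357 in FC, 0.166 in MIR and 0.0195 in MC. It was therefore tested only through the FIR libraries. Thbs3 was lower by 0.36 in FIR and Gpc2 by 0.71 in MIR. Pcolce, whose product enhances the cleavage of procollagens, led the 25 folding and crosslinking genes in both, by 3.12 in FIR and 3.94 in MIR. Adamts14 was lower by 0.70 in FIR and Pcolce2 by 0.86 in MIR. Of 28 other proteases and inhibitors, Adamts16 rose by 3.06 in females and Serpine2, a serine protease inhibitor, was higher by 4.62 in MIR. Mmp17 was lower by 0.45 in FIR and by 0.53 in MIR. Among 26 matrix receptors Bcam, a laminin receptor, was higher by 2.63 in FIR and 3.53 in MIR. Itgb3, the integrin beta 3 chain, was lower by 1.03 in FIR, at 12.2 ± 0.90 FPKM, against 26.0 ± 1.9 in FC (SD, n = 3 each). It was lower by 1.61 in MIR, at 7.56 ± 1.9 FPKM, against 25.0 ± 3.7 in MC (SD, n = 3 each).

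In FC minus MC the largest positive differences of these lists were those of Npnt, the nephronectin gene (2.11), P4ha2 (1.38), Sdc1 (1.02), Spon2 (0.99) and Htra1 (0.97). The largest negative ones were those of Sdc4, the syndecan 4 gene (-2.24), Col9a3 (-2.16), Gpc4 (-1.27), Adamts16 (-1.22) and Pcolce (-1.14). Sdc4 averaged 39.1 ± 2.1 FPKM in FC and 192.1 ± 44.4 in MC (SD, n = 3 each). In the difference of differences Thbs2 (2.64), Cd44 (1.44), Col26a1 (1.22) and Plau (0.91) were more positive in females, and Col9a3 (-3.83), Serpine2 (-3.17), Gpc6 (-2.07), Ddr1 (-2.07), Plod2 (-1.53) and Lama3 (-1.16) more negative. Here too Thbs2 was tested only through the FIR libraries.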

How the data were processed

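RNA of purified germ cells was sequenced as total RNA after removal of ribosomal RNA by hybridization, per the labels' protocols. The authors deposited 1 table of FPKM per embryonic day, per the file headers. The submitters' processing notes name mm10 and DESeq2, and the aligner, the counter and the annotation were not given in the sources used here. Depth was estimated from the spacing of low FPKM values, as the depth at which they lay closest to whole fragments. At that depth 58.2% to 73.3% of them lay within 0.1 fragment of a whole number. The share by chance is 20% for a depth fixed beforehand and higher for one chosen on the same values. The estimate is therefore approximate.

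Values were taken as log2(FPKM + 1), and genes with at least 1 FPKM in at least 2 libraries (E11.5) or 3 (E13.5) were fitted with limma 3.58.1 (trend, R 4.3.3), with the 4 E13.5 groups in 1 fit, no covariate, and Benjamini-Hochberg adjustment over all genes tested at 0.05, two-sided. Fold changes on this scale understate those of low genes. Tables were handled with Python 3.11.15, pandas 2.3.3 and numpy 2.4.6, and figures drawn with matplotlib 3.10.9. The scripts were tested on simulated data. Replicate numbers were not used to pair the libraries in the main fit. The deviations of each library from its group mean, over the genes tested, correlated at 0.48, 0.41 and 0.097 between same-numbered FIR and MIR libraries. The alternatives tried comprised other pseudocounts (0.1, 0.5), testing without the filter or with one of 5 FPKM, quantile and median scaling, library weights, robust moderation, a replicate block, fits of only the groups compared, and each library left out.

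Values are given for the members the results turn on, by a rule: within each role group, the 3 called genes with the largest difference in each direction. Further members are named for their levels, and other lists by their largest differences or most abundant marker. The members and lists were chosen with earlier results of these data known. Family shares, replicate orders and the printed upstream sequences were chosen after the values were seen.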

Additional observations from a re-analysis of the deposited data

Results flagged for a closer look

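The difference between the female comparison (FIR minus FC) and the male one (MIR minus MC) passed limma's test with adjusted p under 0.05 for 12 of the 44 genes, and each is listed here because the 2 comparisons differ. Values are log2 differences of differences, with the female difference first. Col12a1 (2.60) and Eln (1.08) were more positive in females, and both were tested only through the FIR libraries. The basement membrane genes Col18a1 (-2.85), Smoc2 (-2.46), Lama4 (-2.31) and Hspg2 (-1.12) were more negative. So were the glycoprotein genes Fbln2 (-2.72) and Fbn1 (-1.71), and the matricellular and proteoglycan genes Sparc (-3.31), Postn (-1.76) and Vcan (-1.38). Mmp2 (-2.24) was the metalloproteinase among them. Lama4 and Fbn1 reached 1 FPKM at E13.5 only in the MIR libraries and FIR replicate 1, and were tested through the MIR libraries. The direction of the male difference rests on the library codes, which the male titles contradict.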

How the results depend on the processing

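Of the called matrix genes, 15 of 25 in FIR minus FC, 21 of 32 in MIR minus MC, 6 of 11 in FC minus MC and 7 of 12 in the difference of differences passed in every alternative, and 6, 7, 1 and 2 more were lost only at the filter of 5 FPKM, which leaves fewer genes to test. Library weights called 21 genes in FC minus MC and 21 in the difference of differences, and their fit gave convergence warnings. Averaging both sets of each sex called 21 in female minus male, and there Col18a1 was at -0.54 and Smoc2 at -0.39. Lama5 in MIR minus MC was at -0.11 after quantile normalization. The cause was not tested. Leaving out 1 library gave 22 to 23, 30 to 32, 8 to 10 and 9 to 19 called genes, in the order above, with 19 without MIR replicate 2, and 0 at E11.5. Correlations were taken of deviations from the group mean over the genes tested, not of levels. For same-numbered libraries they were -0.09 to -0.03 between FIR and FC, -0.22 to -0.02 between MIR and MC, and 0.16 to 0.25 at E11.5. The deviations of the 2 IR libraries at E11.5 mirror each other, so the E11.5 values are not independent. Between same-numbered FIR and MIR libraries the correlations were 0.48, 0.41 and 0.097, against -0.43 to 0.23 for FIR and MIR libraries of unlike number. The main fit treated all libraries as unpaired. With the replicate block 26, 33, 11 and 12 genes were called, and 0 at E11.5. The block ended the call of Lamb1 in FC minus MC (limma adjusted p = 0.0505). Estimated depth limits the genes near 0 FPKM.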

Other observations

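Markers of 6 further cell types were counted in the E13.5 fits, and their part in the matrix gene differences was not tested. Over all genes tested, 21.8% rose and 22.9% fell in females, and 28.7% were higher and 31% lower in MIR. Of the pericyte and smooth muscle markers, led by Notch3, 4 of 5 tested rose in females, with sums of 15.1 to 20.7 FPKM in FIR, against 4.37 to 4.85 in FC, and 2 were higher in MIR. Of the Leydig markers, led by Hsd3b1, 3 of 5 tested rose in females and 4 were higher in MIR, with sums of 16.8 to 33.9 FPKM in MIR, against 3.04 to 6.61 in MC. Of the surface epithelium markers, led by Krt18, 3 of 5 tested rose and 1 fell in females, and 3 were higher and 1 lower in MIR. Of 4 endothelial markers tested, led by Cldn5, 1 rose in females, and 1 was higher and 1 lower in MIR. Of 2 mesonephros markers tested, led by Lhx1, 1 was higher and 1 lower in both comparisons. Of 4 erythroid markers tested, led by Hbb-y, 2 fell in females and 1 was higher in MIR.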
